A study of Mus musculus with 6 samples.

Results

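Metabotropic glutamate receptors are G protein-coupled receptors that respond to the main excitatory transmitter of the brain. Their 6 genes described here, Grm5, Grm2, Grm3, Grm4, Grm7 and Grm8, were chosen by gene symbol from a table of 23284 genes. The rule used no measured value, but earlier results of these data were known when it was set. Prefrontal cortex RNA was sequenced from C57BL/6 mice of wild-type genotype, aged 8 to 10 weeks, with 3 libraries from mice housed singly and 3 from mice housed in groups, in both cases for 6 days. The deposited values are raw read counts per gene in polyadenylated RNA. They were scaled here to library totals adjusted by TMM (CPM), except for the sums of marker lists, which used unadjusted totals. Whether each library is a separate animal is not in the labels, and p-values therefore speak of the spread among these 6 libraries, part of which may be technical. Other genes of the family were not analysed here.

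The family is divided by sequence and signalling into groups. Group I, here Grm5, sits mainly on the postsynaptic side of excitatory synapses and acts through Gq proteins and phospholipase C, which releases calcium from internal stores. Group II, here Grm2 and Grm3, and group III, here Grm4, Grm7 and Grm8, act through Gi/o proteins, which lower cyclic AMP and restrain transmitter release from nerve terminals. In the cortex Grm2 is mainly a neuronal gene, while Grm3 is also transcribed in astrocytes.

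Total counts were 32902303 to 33428512 in the single-housed libraries and 25858355 to 32088512 in the group-housed libraries, with group-housed replicate 1 the shallowest. Each of the 6 genes had 504 to 6120 counts in each library, so all 6 passed the filter on low counts and were tested. Markers of cortical excitatory neurons were present in all libraries, their 12 genes summing to 4703 to 5073 CPM, unscaled by TMM, in single-housed mice and 4562 to 5200 in group-housed mice. Striatal markers, genes of the region that borders the frontal cortex from below, were also present and uneven, and so were markers of oligodendrocytes, the myelin-forming cells. The 19 striatal genes summed to 2747, 1376 and 538 CPM, unscaled by TMM, in single-housed replicates 1, 2 and 3 and to 1348, 569 and 636 in group-housed replicates 1, 2 and 3. The 13 oligodendrocyte genes summed to 4506, 4346 and 2224 in single-housed replicates 1, 2 and 3 and to 5949, 2154 and 3319 in group-housed replicates 1, 2 and 3. Both marker lists were thus high in single-housed replicates 1 and 2 and in group-housed replicate 1, and none of their members was at 0 in all libraries. Of the 19 striatal genes 19 had a log2 difference above 0 (median 0.97), and of the 13 oligodendrocyte genes 11 had one below 0 (median −0.04). The striatal genes Drd1a, Drd2, Adora2a and Ppp1r1b had log2 differences, single-housed minus group-housed, of 0.92, 1.75, 1.56 and 0.88, with SEs of 0.599, 1.16, 1.13 and 0.625, the myelin gene Mbp one of −0.03 (SE 0.378) and the GABA synthesis gene Gad1 one of 0.04 (SE 0.0766).

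Per kb of counted exon, the group II genes were the most abundant of the 6. This order depends on the division by length. Undivided, Grm5 was the highest of the 6 in every library, at 139 to 184 CPM against 86.4 to 130 CPM for Grm2. Grm2 (chromosome 9, 106546866 to 106558440, minus strand, mm9) averaged 31.9 ± 6.49 CPM per kb of exon in single-housed mice and 31.8 ± 5.46 in group-housed mice (SD, n = 3 each, here and below). Grm3 (chromosome 5, 9485236 to 9725352, minus strand) followed at 23.1 ± 1.77 CPM per kb in single-housed and 22.9 ± 0.168 in group-housed mice. Next came Grm5 (chromosome 7, 94732678 to 95283573, plus strand) at 20.6 ± 1.03 in single-housed and 18.1 ± 2.07 in group-housed mice. The group III genes were lower, and Grm7 (chromosome 6, 110595592 to 111517224, plus strand) led them at 14.6 ± 1.42 CPM per kb in single-housed and 13.7 ± 2.31 in group-housed mice. Grm4 (chromosome 17, 27559333 to 27640249, minus strand) stood at 8.90 ± 2.68 in single-housed and 7.58 ± 1.11 in group-housed mice. Grm8 (chromosome 6, 27225121 to 28084369, minus strand) was at 7.10 ± 0.792 in single-housed and 6.70 ± 0.474 in group-housed mice. The order Grm2, Grm3, Grm5, Grm7, Grm4 held in all 6 libraries for each pair of neighbours, while Grm4 was above Grm8 in 5 of 6. Across all libraries the range of Grm2 (26.0 to 39.2 CPM per kb) did not touch that of Grm3 (22.0 to 25.1), nor did the ranges of Grm3, Grm5 (16.3 to 21.5) and Grm7 (11.02 to 15.9) touch each other. The range of Grm4 (6.37 to 11.97) reached that of Grm7 through single-housed replicate 1 alone, and within each library Grm7 was 1.09-fold to 2.28-fold above Grm4. Grm4 and Grm8 (6.18 to 7.60) did not differ beyond their spread, at 0.93-fold to 1.93-fold. Within a library Grm3 was 1.03-fold to 1.41-fold above Grm5, and Grm2 was 1.07-fold to 1.77-fold above Grm3. Among all genes tested, the level per length of Grm2 lay at percentile 84.0 and that of Grm8 at percentile 48.3.

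**Figure D1:**
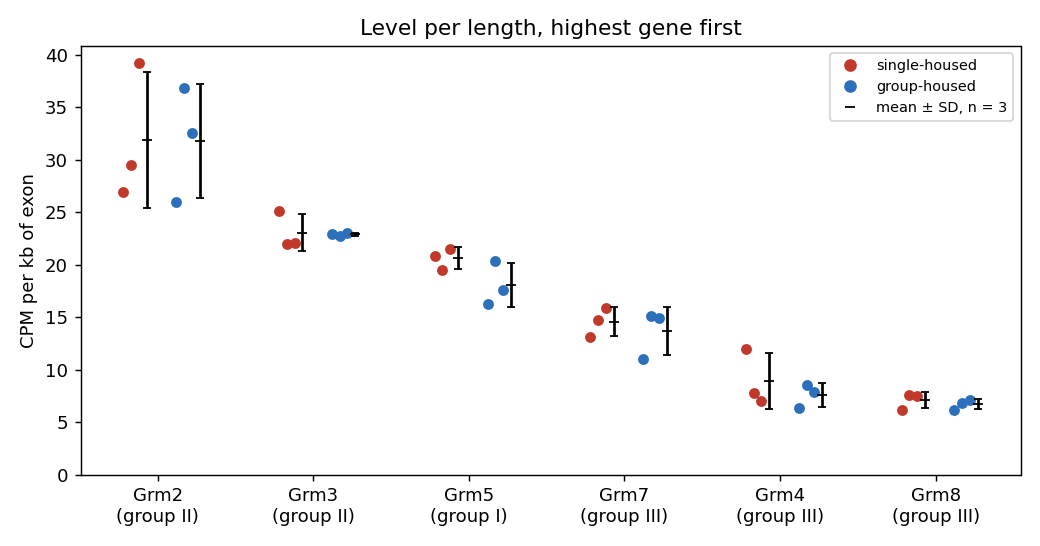
Level of the 6 receptor genes in CPM per kb of exon, with single-housed libraries in red, group-housed libraries in blue and the mean ± SD of 3 libraries beside each set of points. Grm2 was the highest, at a mean of 31.9 CPM per kb in single-housed and 31.8 in group-housed mice, and Grm8 the lowest, at 7.10 in single-housed and 6.70 in group-housed mice.

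The exons of the deposited annotation that were counted summed to 8524 bases for Grm5 and to between 2975 and 4181 bases for the other 5 genes. Grm7 and Grm8 are spread over 921633 and 859249 bases of genome, against 11575 bases for Grm2, although their counted exons are of similar length. No exon of another gene in the table lay on an exon of these genes, and the microRNA gene Mir592 lay in an intron of Grm8.

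The 2 group II genes are set side by side here as DNA because Grm2 varied more between libraries than Grm3, as described further on. Whether these sequences bear on the levels was not tested. The 250 bases before the RefSeq transcription start (build GRCm38.p6, minus strand, 5′ to 3′) are printed with each GC box, GGGCGG or its reverse complement CCGCCC, in capitals. They lie at chr9:106656110-106656359 for Grm2 and at chr5:9725353-9725602 for Grm3.
Grm2: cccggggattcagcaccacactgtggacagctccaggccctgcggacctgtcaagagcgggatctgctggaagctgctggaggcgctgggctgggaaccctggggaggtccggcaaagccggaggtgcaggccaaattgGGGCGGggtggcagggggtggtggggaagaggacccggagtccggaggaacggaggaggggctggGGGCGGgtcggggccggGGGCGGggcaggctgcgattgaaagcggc
Grm3: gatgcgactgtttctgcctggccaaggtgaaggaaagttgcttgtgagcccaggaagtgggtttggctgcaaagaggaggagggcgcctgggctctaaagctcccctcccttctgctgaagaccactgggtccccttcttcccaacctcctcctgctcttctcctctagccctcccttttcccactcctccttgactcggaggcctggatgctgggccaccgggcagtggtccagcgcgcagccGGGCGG
The Grm2 window held 3 GC boxes, 16 CpG and 71.2% G or C, and the Grm3 window 1 GC box, 8 CpG and 62.4% G or C. Of 32841 promoter windows of the same length, 32.7% held a GC box, and the median window had 6 CpG and 52.4% G or C. Of the 6 genes, 4 had a window in the RefSeq table, namely Grm2, Grm3, Grm7 and Grm8, with 7 windows in all because Grm7 and Grm8 have several starts. A GC box was in 5 of these 7 windows and the CCAAT box, CCAAT, in 3 of 7 (33.9% of all windows), while the 2 Grm7 windows overlap and share the same GC box. The TATA box TATAAA (12.4% of all windows), the cAMP response element TGACGTCA (1.55%) and the E-box CACGTG (6.02%), each searched on both strands, were in 0 of 7.

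The first comparison asked whether single housing went with a different level of any receptor gene. By edgeR's quasi-likelihood F-test, 0 of the 6 were called, and 0% of the 15258 genes tested were called in either direction. At an unadjusted p under 0.05 there were 0 of the 6 and 1.56% of all genes. DESeq2 and limma-voom also called 0 of the 6. The groups overlapped for each of the 6 genes, while they did not overlap for 4.86% of all genes. All 6 log2 differences, single-housed minus group-housed, were above 0, as were those of 50.7% of all genes, and their median was 0.09 against 0.00 over all genes. The sign turned under at least 1 alternative for Grm2, Grm3, Grm4 and Grm7. The 6 values share the same libraries and are not independent of each other.

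Grm5, the group I receptor that couples glutamate release to calcium and protein synthesis in dendrites, had the smallest p of the 6. It was at 178, 166 and 184 CPM in single-housed replicates 1, 2 and 3, against 139, 173 and 149.9 CPM in group-housed replicates 1, 2 and 3. Group-housed replicate 2 lay inside the single-housed range, and the other group-housed libraries lay below it. The log2 difference was 0.19 (SE 0.0938, 95% interval −0.02 to 0.41; edgeR unadjusted p = 0.0715, adjusted p = 0.9999), which in fold is 0.986 to 1.32. Group-housed replicate 1 was the shallowest library and also had the highest oligodendrocyte marker sum. Without group-housed replicate 1 the difference was 0.12, and without group-housed replicate 2 it was 0.29.

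Grm2, a presynaptic receptor that senses glutamate spilled outside the synapse, was at 89.5, 97.9 and 130 CPM in single-housed replicates 1, 2 and 3, against 86.4, 122 and 108 CPM in group-housed replicates 1, 2 and 3. The groups covered nearly the same range, and the spread within each group was large. The log2 difference was 0.00 (SE 0.162, interval −0.37 to 0.37; adjusted p = 0.9999). It was −0.17 without single-housed replicate 3, −0.12 without group-housed replicate 1, and 0.12 without group-housed replicate 2.

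Grm3, the receptor also activated by the peptide transmitter N-acetylaspartylglutamate (NAAG), varied least. It was at 88.8, 77.8 and 78.1 CPM in single-housed replicates 1, 2 and 3, against 81.3, 80.3 and 81.4 CPM in group-housed replicates 1, 2 and 3. Single-housed replicate 1 stood above the other 5 libraries, which lay close together. The log2 difference was 0.01 (SE 0.0741, interval −0.16 to 0.18), in fold 0.896 to 1.13, the narrowest interval of the 6. The pooled within-group SD of log2 CPM was 0.077, at percentile 17.1 of all genes.

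Grm4, a group III receptor of nerve terminals, was at 35.6, 23.1 and 20.8 CPM in single-housed replicates 1, 2 and 3, against 18.9, 25.4 and 23.3 CPM in group-housed replicates 1, 2 and 3. Its highest value was single-housed replicate 1 alone, and the other 5 libraries of both groups were mixed. The log2 difference of 0.23 (SE 0.201, interval −0.23 to 0.69) was −0.04 without single-housed replicate 1 and 0.38 without single-housed replicate 3. Its within-group SD of log2 CPM was 0.33, at percentile 88.0 of all genes, the widest of the 6.

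Grm7, a group III receptor of the presynaptic active zone that needs high glutamate to respond, was at 54.7, 61.8 and 66.5 CPM in single-housed replicates 1, 2 and 3, against 46.1, 63.2 and 62.4 CPM in group-housed replicates 1, 2 and 3. Only group-housed replicate 1 lay outside the single-housed range, and without it the log2 difference of 0.09 (SE 0.129, interval −0.20 to 0.38) was −0.04. Grm8, the third group III gene, was at 22.7, 28.0 and 27.6 CPM in single-housed replicates 1, 2 and 3, against 22.7, 25.0 and 26.2 CPM in group-housed replicates 1, 2 and 3. Its difference was 0.08 (SE 0.107, interval −0.16 to 0.33), and replicate 1 was the lowest library of each group. Group-housed replicate 1 was the lowest of the 6 libraries for 5 of the 6 genes, all but Grm3. For Grm8 this was a near tie, at 22.738 CPM against 22.748 CPM in single-housed replicate 1.

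**Figure D2:**
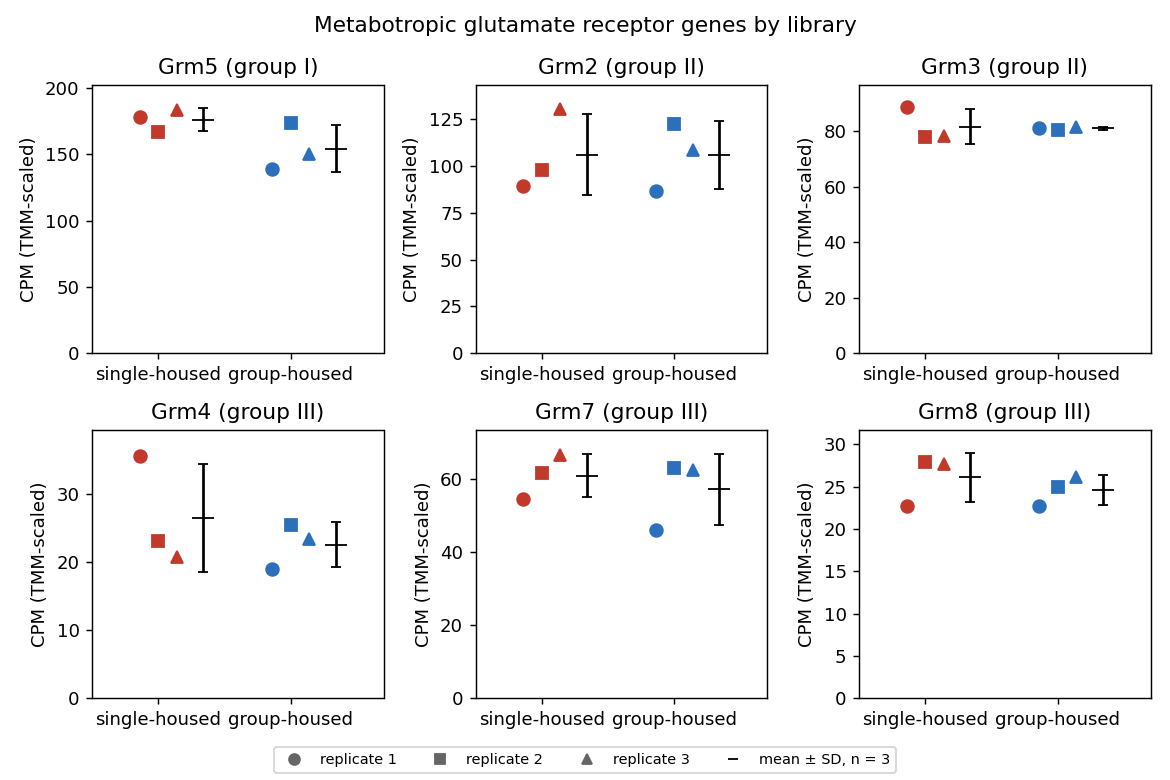
CPM of each receptor gene in each library, single-housed in red and group-housed in blue, with the mean ± SD of 3 libraries as a black bar. The groups overlapped in every panel, and group-housed replicate 1 was the lowest point for 5 of the 6 genes. For Grm8 it nearly tied with single-housed replicate 1.

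**Figure D3:**
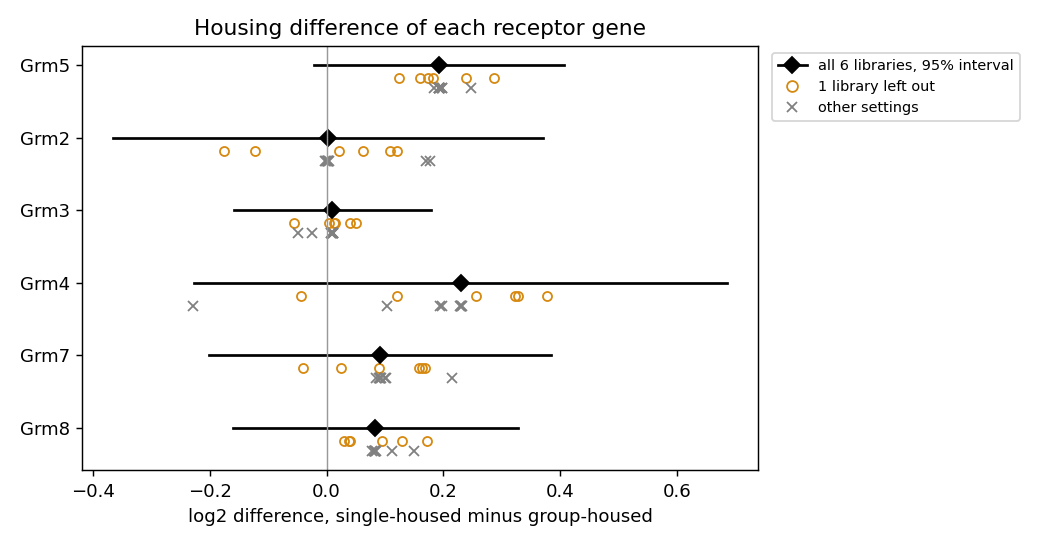
Log2 difference of each receptor gene, single-housed minus group-housed, with its 95% interval from all 6 libraries, and the same difference with 1 library left out or under other settings. Grm5 and Grm8 stayed above 0 under all 15 alternatives, and each of the 6 intervals included 0.

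The makeup of the 6 transcripts within a library does not depend on scaling between libraries. Group II held 51.7 ± 2.19% of the summed level per length in single-housed mice and 54.4 ± 0.682% in group-housed mice, group III 28.9 ± 1.76% in single-housed and 27.7 ± 1.23% in group-housed mice. The share of Grm5 was 20.04, 19.3 and 19.0% in single-housed replicates 1, 2 and 3, against 18.3, 18.4 and 17.1% in group-housed replicates 1, 2 and 3. In every single-housed library Grm5 thus had a larger share than in every group-housed library, a difference of about 1.5 percentage points described here with no test. The shares of Grm2, Grm3, Grm4, Grm7 and Grm8 overlapped between the groups, as did the CPM of Grm5. Separation of shares was not examined for other genes. The share of Grm2 spread more widely within the groups, from 25.9 to 34.6% in single-housed mice and from 29.3 to 33.4% in group-housed mice. Grm4 took 11.5% in single-housed replicate 1 and between 6.17 and 7.74% in the other 5 libraries.

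**Figure D4:**
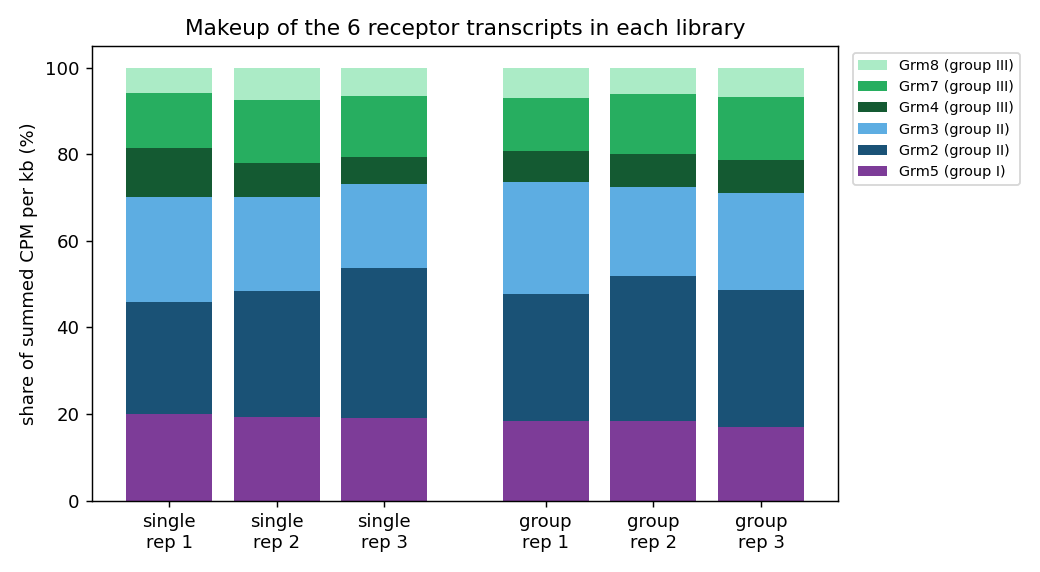
Share of each receptor gene in the summed CPM per kb of the 6 genes, in % for each library, with single-housed libraries on the left. The bottom segment, Grm5, was 19.0 to 20.04% in single-housed mice and 17.1 to 18.4% in group-housed mice. The other segments overlapped in share between the groups.

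The ratio of the group II genes differed more between libraries of a group than between the groups. Grm2 over Grm3, per length, was 1.07, 1.34 and 1.77 in single-housed replicates 1, 2 and 3, against 1.13, 1.62 and 1.42 in group-housed replicates 1, 2 and 3. It was lowest in the 3 libraries with the highest striatal and oligodendrocyte marker sums, which belong to both groups. Grm7 over Grm8 stayed between 1.78 and 2.22 in all 6 libraries.

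A fit with housing and the mean log2 CPM of the striatal markers as terms measured how each gene went with those markers. The slope in this fit was not among the planned results. Grm2 was lower where the striatal mean was higher, by 0.19 on the log2 scale for each log2 step of the markers (slope −0.19, SE 0.0308, interval −0.26 to −0.12; edgeR adjusted p = 0.0140 over all genes). In that fit 0.144% of genes had a slope below 0 past the threshold and 1.61% one above 0. Grm7 had a slope of −0.13 (SE 0.0393, adjusted p = 0.195), Grm8 of −0.07 (SE 0.0404) and Grm5 of −0.06 (SE 0.0368), and these did not pass. Grm3 had a slope of 0.04 (SE 0.0317) and Grm4 one of 0.10 (SE 0.0801), which also did not pass. The Grm2 slope stayed between −0.21 and −0.18 with any 1 library left out. Its edgeR adjusted p was then 0.0271 with single-housed replicate 1 left out and 0.0154 with group-housed replicate 2 left out. It was above 0.05, at 0.0846 and 0.201 without single-housed replicates 2 and 3 and at 0.0687 and 0.0657 without group-housed replicates 1 and 3.

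Oligodendrocyte markers moved with the striatal ones, so the share of each in this slope cannot be told apart. With the mean of the oligodendrocyte markers as the term instead, a choice made after the data were seen, the Grm2 slope was −0.50 (SE 0.0809, edgeR adjusted p = 0.00798). Of all genes, 1.11% had a slope below 0 past the threshold in that fit and 2.44% one above 0. Grm7 had −0.34 (SE 0.0971, adjusted p = 0.0851) and Grm5 −0.21 (SE 0.0797, adjusted p = 0.175). In whole tissue, fewer cells of a type and less RNA per cell cannot be told apart. With the striatal mean as a term, the housing difference of Grm2 was 0.17 (SE 0.0758, edgeR unadjusted p = 0.0495). That of Grm5 was 0.25 (SE 0.0913, edgeR unadjusted p = 0.0235). It was 0.21 for Grm7 (SE 0.0962), 0.15 for Grm8 (SE 0.0978), 0.10 for Grm4 (SE 0.203) and −0.025 for Grm3 (SE 0.0782). The edgeR adjusted p was 0.9997 for each of the 6, and 0 genes were called over the whole table. The share of all genes with an unadjusted p under 0.05 in this fit was not examined. With the 3 libraries of high striatal marker level removed, 1 single-housed and 2 group-housed libraries remained, in a fit that assumes that the lone library varies like the others. There the differences were 0.18 for Grm2 and for Grm5 and −0.23 for Grm4. None of the 6 passed in that fit.

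**Figure D5:**
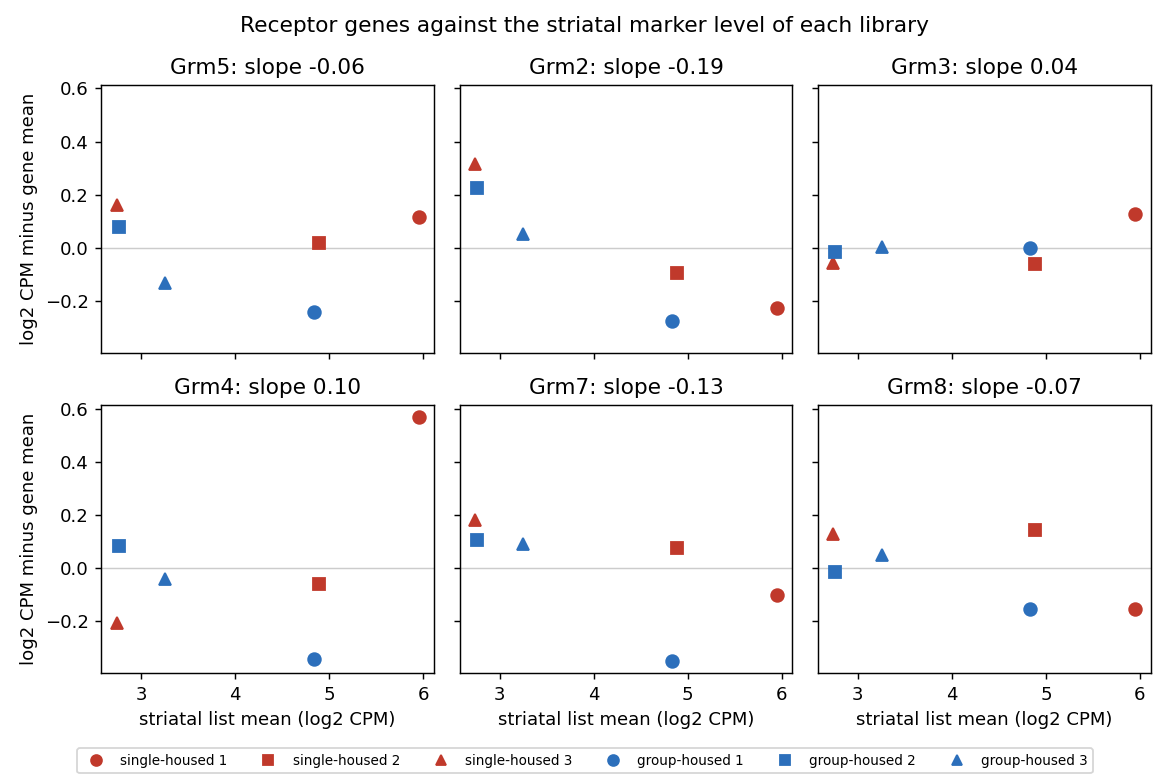
Log2 CPM of each receptor gene minus its mean over the 6 libraries, against the mean log2 CPM of 19 striatal markers in the same library. Grm2 ran downward with a slope of −0.19, while Grm3 was nearly level at 0.04 and Grm4 was high in single-housed replicate 1 alone.

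Among themselves the 6 genes formed no single pattern over the 6 libraries. Grm2 and Grm7 ran most alike (Pearson r of log2 CPM 0.84, as a description over 6 libraries that share depth and tissue makeup), followed by Grm7 and Grm8 (0.82) and by Grm3 and Grm4 (0.80). Grm3 ran opposite to Grm8 (−0.78). Of 10554 named genes with a mean of at least 5 CPM, those most like Grm2 were Ppfia2 (r = 0.997), Pcdh10 (0.996) and Scn7a (0.990). They encode a liprin scaffold of the presynaptic active zone, a protocadherin and a sodium channel. Those most like Grm5 were Osbpl5, Mrps5 and Farsa (0.99, 0.98 and 0.98), and those most like Grm3 were Lrig1, Slc7a2 and Hpca (0.99, 0.98 and 0.98). Grm4 was closest to Spnb1, Snx9 and Syt2 (0.99, 0.99 and 0.98) and most opposite to Optn, Rbm3 and Mcm8 (each −0.99). Grm7 was closest to Xpot, Pnma2 and Slc35a5 (0.997, 0.993 and 0.989). Grm8 was closest to Tshz2, Supt16h and Hp1bp3 (0.99, 0.98 and 0.98) and most opposite to Ppp1r16a, Srrm3 and Rpl41 (each −0.99). Between 71 and 427 genes had an r over 0.9 with each member over these 6 libraries.

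Genes of the pathway around the receptors were then read from the same fit, and 0 of the 106 tested in 4 lists passed it. DESeq2 and limma-voom also called 0 of them, and 2 of the 106, Rgs14 and Grasp, had an unadjusted edgeR p under 0.05, against 1.56% of all genes. Of 28 genes of the Gq and phospholipase C path that Grm5 uses, 20 were above 0 and 8 below, with a median log2 difference of 0.04 against 0.00 over all genes. Those of smallest p were Camk2b, a calcium-activated kinase subunit, at 1119 ± 80.9 CPM in single-housed mice, with 1029 ± 8.21 CPM in group-housed mice (0.12, SE 0.0758), Prkcd (0.30, SE 0.205), Ptk2b (0.10, SE 0.0987) and Itpr2 (−0.10, SE 0.129). Prkcd encodes a protein kinase C, Ptk2b a calcium-activated tyrosine kinase and Itpr2 a calcium release channel of internal stores. Prkcd, also in the thalamic and cerebellar marker list, was at 13.1 CPM in single-housed replicate 1 and at 7.11 to 8.58 in the other libraries. Non-overlapping groups were found for 1 of the 28, Camk2b, against 4.86% of all genes.

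Of 29 Gi/o proteins and effectors, on which group II and III receptors act, 17 were above 0 and 12 below (median 0.02). Rgs14, which speeds the shut-off of Gi proteins, was at 65.6 ± 2.01 CPM in single-housed mice, with 57.0 ± 5.41 CPM in group-housed mice. Its log2 difference was 0.20 (SE 0.0832, edgeR unadjusted p = 0.0386, adjusted p = 0.9999). Groups without overlap were found for 1 of the 29, Rgs14, against 4.86% of all genes. Adcy5, an adenylyl cyclase, was at 456, 262 and 151 CPM in single-housed replicates 1, 2 and 3, against 239, 151 and 162 CPM in group-housed replicates 1, 2 and 3 (0.66, SE 0.347). Gng7, a G protein gamma subunit, was at 353, 205 and 87.5 CPM in single-housed replicates 1, 2 and 3, against 198, 87.9 and 102 CPM in group-housed replicates 1, 2 and 3 (0.74, SE 0.461). Both genes are abundant in striatum, Adcy5 is also 1 of the 19 striatal markers, and both were highest in the libraries with high striatal markers, whose part in these differences was not tested. Gpsm1, a regulator of Gi proteins, had 0.09 (SE 0.0745).

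Of 29 genes for proteins that bind or anchor the receptors, 11 were above 0 and 18 below (median −0.03). Grasp, which encodes the scaffold tamalin that carries group I receptors, was at 44.0 ± 3.67 CPM in single-housed mice, with 54.2 ± 7.17 CPM in group-housed mice (−0.30, SE 0.110; edgeR unadjusted p = 0.0236, adjusted p = 0.9999). Adrbk1, a kinase that desensitises G protein-coupled receptors, had −0.11 (SE 0.0635), and Grip1, a PDZ scaffold, 0.14 (SE 0.0933). Ncdn, which encodes neurochondrin, a binding partner of Grm5, was at 1719 ± 144 CPM in single-housed mice, with 1559 ± 106 CPM in group-housed mice (0.14, SE 0.0884). Groups without overlap were seen for 3 of the 29, against 4.86% of all genes. They were Adrbk1, Grip1 and the PDZ protein gene Pick1, the last named after its values were seen. Homer1, the scaffold that ties Grm5 to internal calcium stores, was at 176, 132 and 148 CPM in single-housed replicates 1, 2 and 3, against 107, 205 and 193 CPM in group-housed replicates 1, 2 and 3 (−0.15, SE 0.221), an error too wide to show a moderate difference. Elfn1 and Elfn2, adhesion proteins that recruit group III receptors across the synapse, had −0.00 (SE 0.0948) and 0.03 (SE 0.152).

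Of 20 genes of glutamate and NAAG supply and uptake, 11 were above 0 and 9 below (median 0.00). Slc17a7, the vesicular glutamate transporter of cortical neurons, was at 2052 ± 125 CPM in single-housed mice, with 2070 ± 90.3 CPM in group-housed mice (−0.01, SE 0.0775), and Slc1a2, the main glutamate uptake carrier of astrocytes, at 2591 ± 139 CPM in single-housed mice, with 2571 ± 139 CPM in group-housed mice (0.01, SE 0.0781). Their 95% intervals were −0.19 to 0.16 and −0.17 to 0.19. Folh1, which encodes the peptidase that splits NAAG, was low, at 3.75 ± 0.595 CPM in single-housed mice, with 3.70 ± 0.642 CPM in group-housed mice (0.02, SE 0.180). Gls2, a glutaminase, had −0.11 (SE 0.0745) and Rimklb, a NAAG synthetase, −0.10 (SE 0.0963). The peptidase gene Naalad2 had 0.33 (SE 0.229) and Slc17a8, another vesicular glutamate transporter, 0.17 (SE 0.197). Groups without overlap were found for 1 of the 20, Gls2, against 4.86% of all genes.

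Of the other marker lists, the 12 astrocyte markers summed to 4587 to 4927 CPM, unscaled by TMM, in single-housed mice and to 4756 to 4965 in group-housed mice. The 13 interneuron markers summed to 1512 to 1590 in single-housed mice and to 1558 to 1748 in group-housed mice. The 13 microglia and vessel markers summed to 395 to 420.0 in single-housed mice and to 383 to 457 in group-housed mice, and the 12 olfactory markers to 315 to 332 in single-housed mice and to 272 to 318 in group-housed mice. The 12 thalamic and cerebellar markers were low in all libraries, at 70.0 to 74.4 in single-housed mice and 65.2 to 71.3 in group-housed mice. By edgeR, DESeq2 and limma-voom 0 genes of the marker lists passed. Too low to be tested were Gabra6 and Barhl1, which left 10 thalamic or cerebellar markers, and Eomes, Tbx21 and Lhx1, which left 9 olfactory ones. Of these 9 olfactory markers 9 had a log2 difference above 0 (median 0.13), against 50.7% of all genes, and their part in the receptor values was not tested. An unadjusted edgeR p under 0.05 was found for 1 interneuron, 1 astrocyte, 1 olfactory and 2 thalamic or cerebellar markers, against 1.56% of all genes.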

How the data were processed

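RNA from 6 prefrontal cortex samples was sequenced from TruSeq Stranded mRNA libraries, per the labels' protocols. The submitters' processing notes name FastQC, STAR, featureCounts and build mm9, while versions, annotation release and strand setting were not given in the sources used here. Each deposited value is a raw read count for a gene, which the authors did not normalize, and the deposited exon length, another column per the file headers, was used to compare levels between genes. Without the strand setting, reads from antisense transcripts cannot be told apart.

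Counts were tested here with edgeR 4.0.16 (R 4.3.3): filterByExpr (minimum count 10, minimum total 15; 15258 of 23284 genes kept), TMM scaling, quasi-likelihood F-test, Benjamini-Hochberg adjustment over all genes tested and a threshold of 0.05. Standard errors and 95% intervals follow from the F statistic. The common biological coefficient of variation was 11.8%. The test was checked on simulated counts, where 52.2% of genes changed 1.5-fold, 85.1% changed 2-fold and 98.5% changed 4-fold were called. There were 11 false calls, and changes below 1.5-fold were not simulated. The alternatives were DESeq2 size factors, other filters, DESeq2 1.42.0, limma-voom (limma 3.58.1), robust empirical Bayes, each library left out, a replicate block, the striatal mean as a term, and the libraries with high striatal markers left out. The slopes on the striatal mean were not among the planned results, and their alternatives were added after the data were seen. Log2 CPM for slopes and likeness used a prior count of 2. The members and lists were chosen with earlier results of these data known. From each pathway list the 4 genes of smallest p are named, with 13 genes fixed by name for pathways and markers and the 3 genes most like each member. Of the list genes, 4 were matched through another symbol and 1 was not matched. In the slope fits, housing and the list mean were terms of the same model. Promoter sequences are from RefSeq (GRCm38.p6) and were not joined to mm9 coordinates.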

Additional observations from a re-analysis of the deposited data

How the results depend on the processing

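The call of 0 receptor genes held under all 15 alternatives, with edgeR, DESeq2 and limma-voom. Over the whole table, where 0 genes were called, DESeq2 called 8, leaving out the 3 high striatal libraries gave 4, and leaving out 1 library 0 to 1. The log2 difference kept its sign under all 15 alternatives for Grm5 (0.12 to 0.29) and Grm8 (0.03 to 0.17). It turned for Grm2 with limma-voom (−0.0022), with the replicate block (−0.0015) and without 1 library (−0.17 to 0.12), for Grm3 with the striatal mean as a term (−0.025), without the high striatal libraries (−0.049) and without 1 library (−0.057 to 0.051), for Grm4 without the high striatal libraries (−0.23) and without 1 library (−0.044 to 0.38), and for Grm7 without 1 library (−0.041 to 0.17). The cause was not tested.

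Samples with the same replicate number were not shown to be paired: their deviations from the group means correlated at 0.27, −0.32 and 0.17 for numbers 1, 2 and 3, and not every library correlated best with its own number. The replicate block called 0 genes, as did the fit without it.

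The Grm2 slope on the striatal mean was −0.21 to −0.18 with 1 library left out, past the threshold in 2 of 6 such fits. The slope of Grm4 ranged from −0.064 to 0.21 with 1 library left out, and was below 0 without single-housed replicate 1 or 3. Not divided by length, the shares of groups I, II and III were 36.9, 39.2 and 23.9% in single-housed and 34.6, 42.0 and 23.4% in group-housed libraries. With 1 single-housed library left out, the shares per length of groups I, II and III were 19.2 to 19.7%, 50.4 to 52.5% and 28.3 to 29.9%. With 1 group-housed library left out, they were 17.7 to 18.4%, 54.0 to 54.6% and 27.1 to 28.3%. Each receptor gene had 504 counts or more in each library, and precision is limited by 3 libraries a group.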
